A study of Mus musculus with 7 samples.

Results

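The core clock activators are the 4 bHLH-PAS transcription factors that form the positive arm of the circadian clock: *Arntl*, which encodes BMAL1, its paralog *Arntl2*, which encodes BMAL2, and their partners *Clock* and *Npas2*. They were chosen by name, and make up 4 of the 21965 genes counted by RNASeq in contused spinal cord at dpi 3. One group was 3 mice labelled as *Arntl* knockouts, or *Bmal1*-/- (strain B6.129-Arntltm1Bra/J, a germline knockout, 2 females and 1 male), and the other was 4 C57BL/6 WT mice (C57Bl/6 J per the study, 2 females and 2 males). All 7 mice had a moderate T9 contusion of 50 kdyn, and RNA came from 5 mm of cord around the epicenter, with 1 library per mouse. There was no sham or uninjured group, and every collection was made at one time of day, in the morning, so these data hold no rhythm. Per the study, 1 WT mouse was a littermate of the knockouts while WT controls were otherwise ordered from a supplier, and which library came from the littermate is not labelled, so genotype and origin cannot be told apart. Ages are described as matched.

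BMAL1 pairs with CLOCK or NPAS2 through the PAS domains, and the pair binds E-box sequences to switch on many genes. Some of these encode proteins that act back on the activators. PER and CRY proteins inhibit the BMAL1:CLOCK pair, whereas the nuclear receptors REV-ERBα and REV-ERBβ (*Nr1d1* and *Nr1d2*) repress transcription of *Arntl*, *Npas2* and *Clock* through ROR elements, where the ROR proteins act as activators. BMAL2 can replace BMAL1 as a partner, and NPAS2 can replace CLOCK.

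The libraries held 38529644 to 44096737 counts, and 15743 genes passed the filter on low counts, including all 4 activators. Levels are given as CPM, counts scaled to library size with TMM factors, and as CPM per kb of exons where genes are compared with each other. Genes were called at an adjusted p under 0.05 (edgeR, quasi-likelihood, adjusted over all genes). By this rule 0.654% of the genes tested rose and 0.915% fell in the knockout-labelled libraries. Separately, 13.4% had their lowest value in those libraries above the highest WT value, and 13.4% were below every WT value. WT replicate 3 stood apart from the other WT libraries, and values that rest on it are given below. Among the activators, 3 of 4 rose and 0 fell, and the values of those 3 genes did not overlap between genotypes. *Npas2* rose 6.14-fold, *Arntl* 1.71-fold and *Clock* 1.40-fold, while *Arntl2* was not called.

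*Arntl* (ENSMUSG00000055116) lies on the forward strand of chromosome 7 of GRCm38, from 113207465 to 113314126, with 7523 exonic bases. It is the gene that the knockout allele targets. It had 949, 1041 and 887 counts in the knockout-labelled libraries and 576, 594, 476 and 532 counts in WT. All 3 knockout-labelled libraries thus lay above all 4 WT libraries, so the count of the targeted gene went against the label taken alone. The gene count sums reads over all exons. It therefore cannot show whether the exons removed by the allele were read, and checks neither the deletion nor the label. Per the study, terminal genotyping was used to correct early genotyping errors, with mice moved between groups where needed. An annotated antisense gene, *Gm45355*, shares 33 exonic bases with *Arntl*, which is 0.4387% of its exons. Scaled to library size, knockout-labelled tissue had 23.6 ± 0.941 CPM (SD, n = 3) and WT 13.8 ± 1.502 CPM (SD, n = 4). In edgeR this gave a log2 fold change of 0.77 with a 95% interval of 0.54 to 1.01 and an adjusted p of 0.0155. This is bulk tissue, where more transcripts per cell and more cells that express a gene cannot be told apart.

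The start of *Arntl* holds the elements through which REV-ERB and ROR proteins are known to act on this gene, and they are shown because no other activator has them in its promoter window. The windows came from RefSeq for GRCm38.p6 and run from 250 bases before to 50 bases after each annotated start. There were 2 windows for *Arntl*, 3 for *Clock* and 1 each for *Arntl2* and *Npas2*. The *Arntl2* window, from 146805280 to 146805579, lies inside the gene, which starts at 146796055 in GENCODE M21. That of *Npas2* begins at 39194022, inside a gene that starts at 39193731. Sites at those 2 gene starts were therefore not searched. A ROR element (TAGGTCA or TGGGTCA, either strand) was found in 6.45% of all 32851 windows, and the variant TAGGTTA in 1.44%. Both occur in *Arntl*, on the forward strand of chromosome 7, at 113207541 to 113207547 and 113207505 to 113207511. In GENCODE M21 they lie in the first exon of the gene, from 113207465 to 113207644, which is 5′ UTR. The sites are printed 5′ to 3′ with the motif in capitals, at chr7:113207493-113207522 and chr7:113207529-113207558, and the upstream stretch that precedes them is chr7:113207215-113207464:
Arntl variant site: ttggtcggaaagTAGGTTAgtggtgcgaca
Arntl ROR element site: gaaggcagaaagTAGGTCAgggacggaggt
Arntl upstream: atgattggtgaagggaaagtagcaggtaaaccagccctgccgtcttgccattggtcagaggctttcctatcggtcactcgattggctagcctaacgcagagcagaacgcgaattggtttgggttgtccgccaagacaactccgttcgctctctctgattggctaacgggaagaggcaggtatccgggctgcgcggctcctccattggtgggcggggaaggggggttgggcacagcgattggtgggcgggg

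The E-box CACGTG was present in 7.15% of all windows and the variant CACGTT in 4.68%, on either strand, and neither was found in a window of any of the 4 activators. The base composition of the windows differed between them. The *Npas2* window was 72.67% G and C, above 93.92% of all windows, and the *Arntl2* window was 43.33%, above 17.34%. These are letter matches in short windows only, and the *Arntl2* and *Npas2* windows leave out the GENCODE starts of those genes.

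*Npas2* (ENSMUSG00000026077) lies on the forward strand of chromosome 1 from 39193731 to 39363236, with 4791 exonic bases. NPAS2 is the CLOCK paralog best known from the forebrain. *Npas2* had 2646, 2701 and 2134 counts in the knockout-labelled libraries, against 478, 401, 276 and 419 counts in WT. The lowest of the former was far above the highest of the latter. Mean levels were 61.4 ± 6.65 CPM (SD, n = 3) against 9.99 ± 2.23 CPM in WT (SD, n = 4). That is a 6.14-fold rise with a 95% interval of 4.55 to 8.29, or 2.62 ± 0.19 (SE) on the log2 scale (edgeR, adjusted p = 0.000918). Only 21 genes had a smaller p, and the fold change was above that of 99.9% of genes tested. *Npas2* was called with each of the 7 libraries left out in turn, when its log2 fold change ran from 2.48 to 2.73.

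*Clock* (ENSMUSG00000029238) lies on the reverse strand of chromosome 5 from 76209868 to 76304792, with 13727 exonic bases. Its product is the usual partner of BMAL1. *Clock* had 4897, 5301 and 5052 counts in the knockout-labelled libraries and 3520, 3776, 3224 and 3603 counts in WT. The genotypes did not overlap, although the rise was small. Mean levels were 125 ± 2.67 CPM (SD, n = 3) against 89.5 ± 6.84 CPM in WT (SD, n = 4). The rise was 1.40-fold with a 95% interval of 1.25 to 1.57, or 0.48 ± 0.07 (SE) on the log2 scale (edgeR, adjusted p = 0.0247). Of all the activators *Clock* varied least between mice, with a coefficient of variation of 2.13% in the knockout-labelled libraries and 7.64% in WT.

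*Arntl2* (ENSMUSG00000040187) lies on the forward strand of chromosome 6 from 146796055 to 146833529, with 5691 exonic bases. It had 546, 654 and 608 counts in the knockout-labelled libraries and 536, 569, 787 and 626 counts in WT. The values of the first group all lay within the range of the second. Mean levels were 14.8 ± 0.834 CPM (SD, n = 3) against 15.9 ± 2.62 CPM in WT (SD, n = 4). edgeR placed the log2 fold change at -0.10 with a 95% interval of -0.41 to 0.21 and an adjusted p of 0.638. A rise by more than 1.15-fold or a drop below 0.750 of the WT level lies outside that interval. The sign itself rested on WT replicate 3, and without it the log2 fold change was 0.013.

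**Figure D1:**
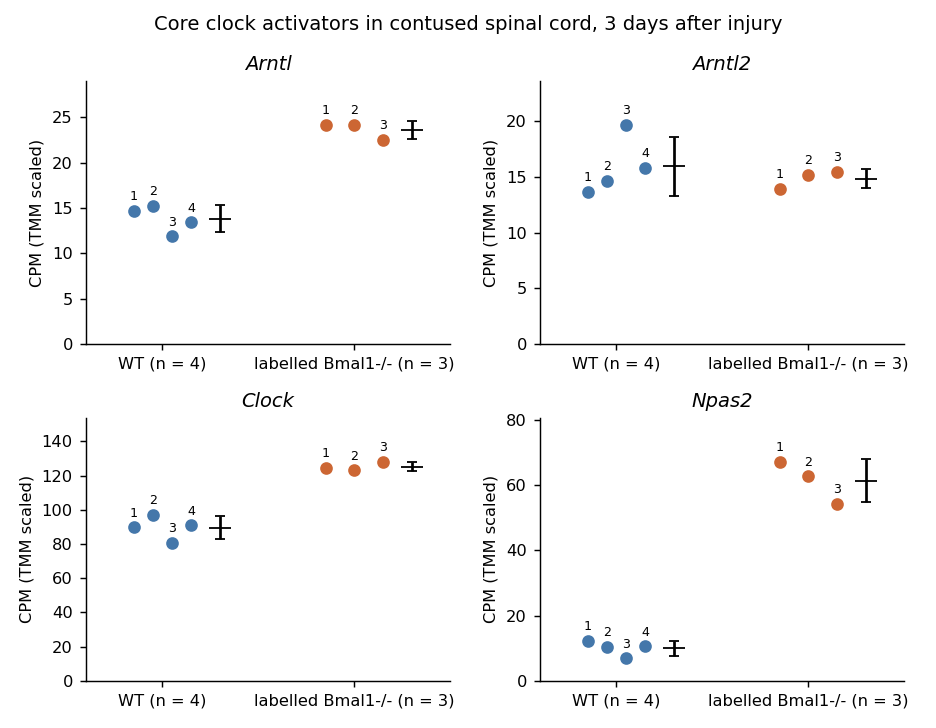
CPM (TMM scaled, linear axes from 0) of *Arntl*, *Arntl2*, *Clock* and *Npas2* in each library, with the replicate number above each point and the mean ± SD beside it. The 3 knockout-labelled libraries lie above all 4 WT libraries for *Arntl*, *Clock* and *Npas2*, and within the WT range for *Arntl2*.

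WT replicate 3 had the lowest WT level of *Arntl*, *Clock* and *Npas2* and the highest of *Arntl2*. On the log2 scale it deviated from the WT mean by -0.20, -0.15, -0.48 and 0.31 for these genes. It also had the lowest neuron marker sum (8 genes), 2096 CPM, against 3750 to 5086 CPM in the other WT libraries. Without this library the log2 fold changes were 2.48 for *Npas2*, 0.71 for *Arntl* and 0.44 for *Clock*, each the lowest when leaving out 1 library, and all 3 genes were still called.

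The calls differed in how much they rested on single mice. With each library left out in turn, *Arntl* kept a log2 fold change of 0.71 to 0.82 but was called in 3 of 7 cases. *Arntl* was not called without any 1 of the knockout-labelled libraries or without WT replicate 4. *Clock* ranged from 0.44 to 0.52 and was called in 2 of 7 cases, those without WT replicate 2 or WT replicate 3. With sex as a covariate *Clock* had the same log2 fold change of 0.48 and an adjusted p of 0.0532 (edgeR). Within females, the log2 ratio of mean CPM between genotypes was 2.53 for *Npas2*, 0.69 for *Arntl*, 0.41 for *Clock* and 0.04 for *Arntl2*. Males had 2.63, 0.83, 0.58 and -0.20 in the same order, with 1 male labelled *Bmal1*-/-. The 3 called activators were thus higher in both sexes.

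**Figure D2:**
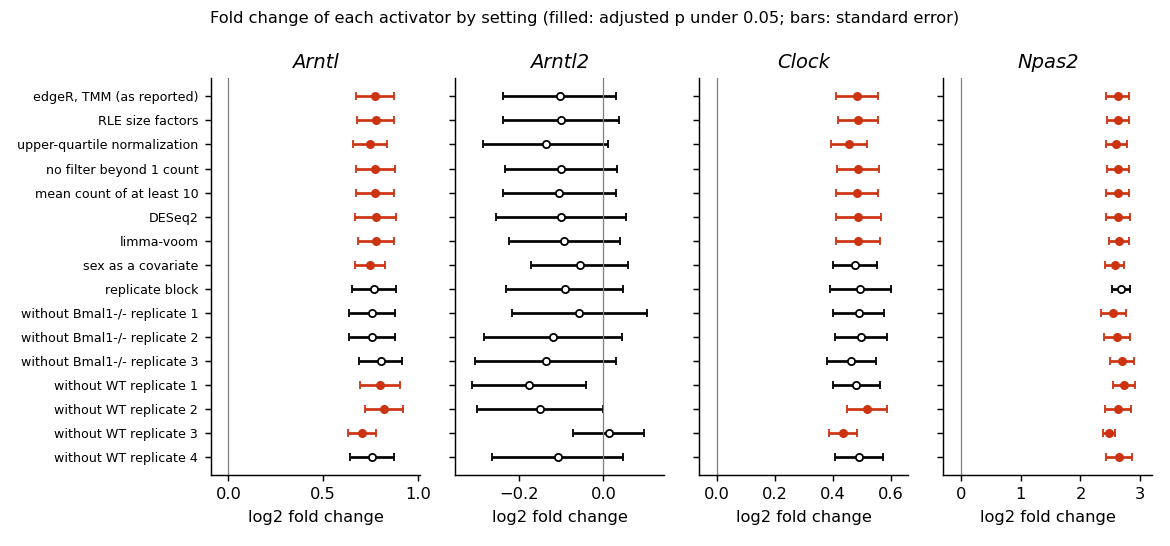
Log2 fold change (knockout-labelled libraries minus WT, with standard errors) of each activator in the fit as reported and in 15 alternatives, filled where the adjusted p was under 0.05. *Npas2* is filled in every row but the replicate block, *Arntl* and *Clock* keep their place while their calls come and go, and *Arntl2* lies around 0.

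The order of the activators by CPM per kb of exons differed between genotypes. WT tissue had *Clock* first at 6.52 ± 0.498, then *Arntl2* at 2.80 ± 0.461, *Npas2* at 2.08 ± 0.465 and *Arntl* at 1.84 ± 0.200 (SD, n = 4). *Clock* stood clear of the others, whereas the ranges of *Arntl2* and *Npas2*, and of *Npas2* and *Arntl*, overlapped. In the knockout-labelled libraries, *Npas2* came first at 12.8 ± 1.39, followed by *Clock* at 9.12 ± 0.195, *Arntl* at 3.14 ± 0.125 and *Arntl2* at 2.61 ± 0.146 (SD, n = 3), and no neighbours in that order overlapped. Among all genes tested, *Npas2* moved from above 27.8% of them in WT to above 73.8%. The 4 activators together had 13.2 ± 0.638 CPM per kb in WT (SD, n = 4) and 27.7 ± 1.22 in the knockout-labelled libraries (SD, n = 3). The share of *Npas2* in this sum was 15.7% ± 3.02 in WT and 46.2% ± 3.02 in the other group, while that of *Clock* was 49.2% and 33.0%.

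**Figure D3:**
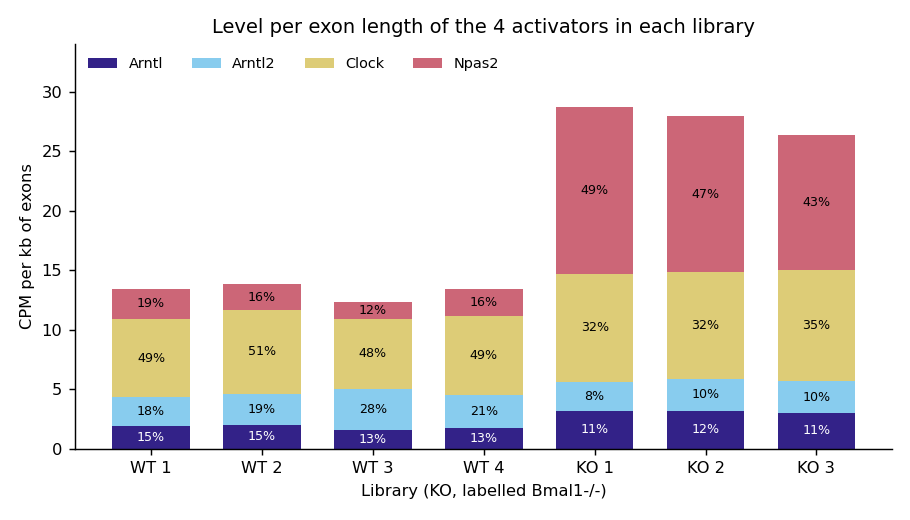
CPM per kb of exons of the 4 activators, stacked for each library, with the share of each gene in its bar. All 4 WT bars are shorter than the 3 knockout-labelled bars (KO), and the *Npas2* segment is the smaller of the CLOCK-side segments in WT and the larger in KO.

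The exon length used matters for such an order, as the union of annotated exons can include ones that are little used in this tissue. Divided by the longest coding transcript instead, which was chosen after seeing the data, *Npas2* was again first in the knockout-labelled libraries at 14.5 ± 1.57 CPM per kb, close to *Clock* at 12.9. By this length *Npas2* came last in WT at 2.36 CPM per kb. *Arntl2* and *Arntl* lay between *Clock* and *Npas2* in WT, at 5.45 and 4.64.

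Ratios within a library do not depend on its depth. The ratio of *Npas2* to *Clock* per kb of exons was 1.55, 1.46 and 1.21 in the knockout-labelled libraries and 0.389, 0.305, 0.246 and 0.334 in WT. The former all lay above 1 and the latter all well below. On average the ratio was 1.41 ± 0.175 (SD, n = 3) against 0.318 ± 0.0599 in WT (SD, n = 4), with geometric means 4.45-fold apart (exact two-sided permutation p = 0.0286, the smallest that 3 against 4 libraries can give). Whether the ratio exceeds 1 depends on the length used. With the longest coding transcript it was 1.24, 1.17 and 0.972 in the knockout-labelled libraries, and in raw counts *Clock* exceeded *Npas2* in every library.

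On the BMAL side, *Arntl2* to *Arntl* was 0.761, 0.831 and 0.906 per kb in the knockout-labelled libraries and 1.23, 1.27, 2.18 and 1.56 in WT. Here too the genotypes did not overlap, and the ratio was 0.548 of its WT value (exact two-sided permutation p = 0.0286). Whether the WT ratio exceeds 1 depends on the length used. In raw counts it was 0.931, 0.958, 1.65 and 1.18 in WT and 0.576, 0.628 and 0.686 in the knockout-labelled libraries. Of these 2 genes *Arntl* was called and *Arntl2* was not. Since *Arntl* counts do not show whether the transcript was intact, the ratio compares reads and not working transcripts.

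The sum of *Clock* and *Npas2* over that of *Arntl* and *Arntl2* was 4.09, 3.75 and 3.62 in the knockout-labelled libraries and 2.09, 2.00, 1.45 and 1.94 in WT. The lowest of the first group was above the highest WT value. The ratio was 2.06-fold higher, a log2 difference of 1.04 (exact two-sided permutation p = 0.0286). Without division by exon length the log2 difference was 0.54. The p-values of the 3 ratios, each the smallest possible, were not adjusted over the 3. The last ratio is built from the genes of the first 2, and all were chosen with earlier results of these data known.

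**Figure D4:**
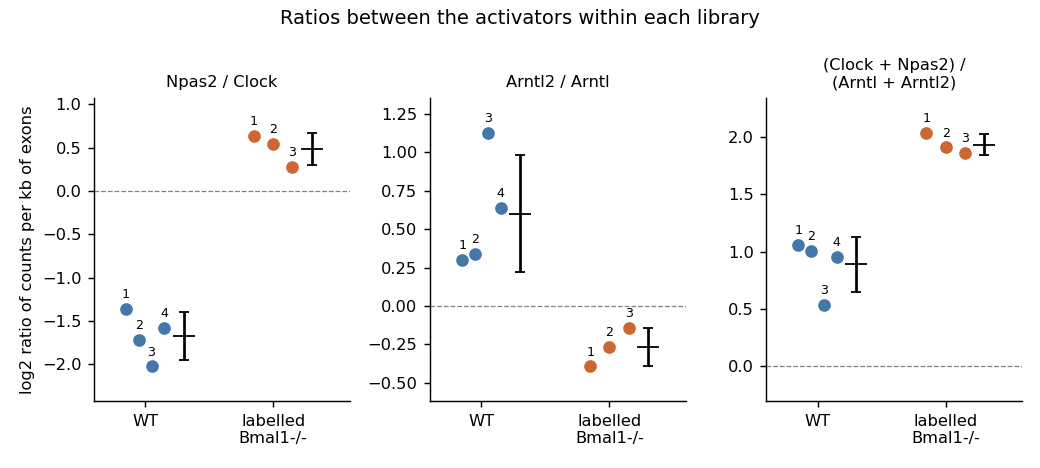
Log2 ratios between the activators within each library, from counts per kb of exons, with replicate numbers, mean ± SD and a dashed line at equal levels. The genotypes do not overlap in any of the 3 ratios, and WT replicate 3 is the WT extreme in each.

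The activators were set beside the genes through which the clock is known to feed back on them. Of 23 other clock genes, all tested, 2 rose, 6 fell and 15 were not called, with a median log2 fold change of 0.06, whereas the median over all genes was -0.0057. The genotypes did not overlap for 8 that were higher and 7 that were lower. Over all genes tested, 13.4% did not overlap in each direction, and 0.654% were called higher and 0.915% lower. The activators and the 23 other clock genes come from the same comparison. Their changes are listed side by side, and no relation between them was tested.

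Among the 4 nuclear receptors, both that repress *Arntl*, *Npas2* and *Clock* fell. *Nr1d1* was at 6.00 ± 1.11 CPM against 34.2 ± 3.47 in WT, a log2 fold change of -2.51. *Nr1d2* had 11.5 ± 1.75 CPM against 73.7 ± 10.9, a log2 fold change of -2.68. The activating receptors among them were not called, with log2 fold changes of 0.48 for *Rora* and 0.04 for *Rorb*. *Nr1d1* shares 8.547% of its exons with *Thra* on the opposite strand, and the strand setting of the counting is not given in the sources used here.

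Of the 9 repressors, 1 rose and 3 fell. *Cry1*, which inhibits the BMAL1:CLOCK pair and carries a known ROR element of its own, rose with a log2 fold change of 1.58. *Per3*, *Ciart* (CHRONO, a repressor that binds BMAL1) and *Bhlhe40* (DEC1, which competes for E-boxes) fell, with log2 fold changes of -2.21, -1.29 and -0.67. *Per1* and *Per2* were not called, at 0.27 and 0.54, and neither was *Cry2*, at 0.58. Among the 4 D-box factors, *Nfil3*, a repressor, rose (log2 fold change 0.94) and *Dbp*, an activator and E-box target, fell (-1.85). *Dbp* shares 18.01% of its exons with *Sphk2* on the opposite strand. None of the 6 kinases and ligases that set the stability of PER and CRY was called, from *Csnk1d* at 0.05 to *Fbxl21* at 0.67.

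Other members of the bHLH-PAS family were read for comparison. Of 15 listed, 13 were tested and 0 were called, where 0.654% of all genes tested rose and 0.915% fell. A count of 0 among 13 is therefore near the share over all genes. The 2 not tested, *Sim1* and *Sim2*, had too few counts. The general partner *Arnt* had a log2 fold change of -0.06 and *Arnt2* one of 0.13. *Npas1*, *Npas3* and *Npas4*, the NPAS genes outside the clock, were at 0.53, 0.03 and -0.26. The genotypes did not overlap for 2 of the 13, both below every WT value, as were 13.4% of all genes tested. *Ahr*, the dioxin receptor, was at -0.54 (adjusted p = 0.131, edgeR) and *Hif1a*, the hypoxia-inducible factor, at -0.45 (adjusted p = 0.0595, edgeR).

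**Figure D5:**
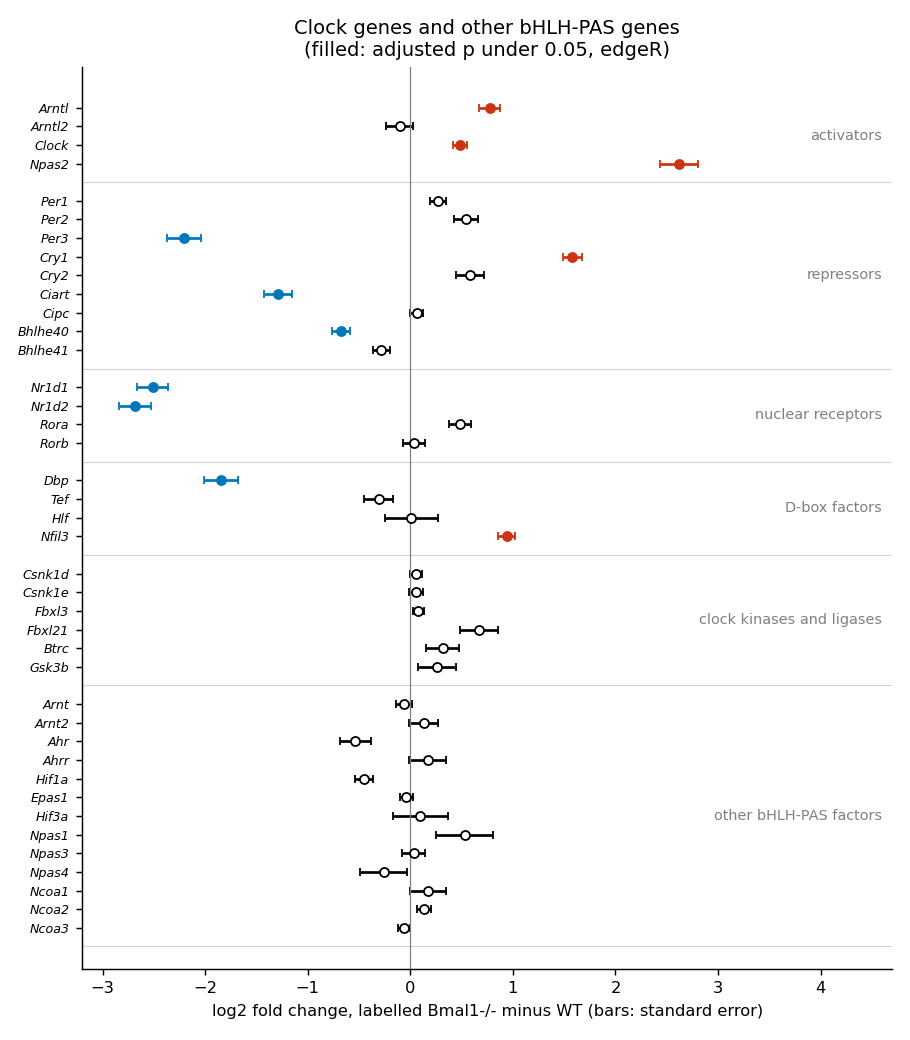
Log2 fold change (knockout-labelled libraries minus WT, with standard errors) of the activators, the other clock genes by role and the other bHLH-PAS factors, filled where called (red higher, blue lower). *Npas2* has the largest rise shown and *Nr1d2* the largest drop, and no bHLH-PAS factor outside the activators is filled. Of all genes tested, 0.654% were called higher and 0.915% lower.

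Genes were also ranked by how close their centred log2 CPM profile over the 7 libraries was to that of each activator, as the mean absolute difference. Profiles were of CPM + 0.5, which shrinks differences at low levels. The profile of *Npas2* was most like those of *Scube3* (0.12) and *Fabp7* (0.22), then *Tbx10*, *Sctr* and *Trim34b* (0.32 to 0.34). Being near by this measure did not mean an equal fold change. The edgeR log2 fold changes of *Tbx10*, *Sctr* and *Trim34b* were 4.57, 2.45 and 4.67, against 2.62 for *Npas2*. The *Arntl* profile was most like *Nhsl1*, *Bmpr1b*, *Pdzd2*, *Ednrb* and *Frem2* (0.058 to 0.088). *Clock* was closest to *2410131K14Rik*, *Tpmt*, *Rab3b*, *Gm14295* and *Atp6v1e1* (0.030 to 0.043), and *Arntl2* to *Nkapd1*, *Mob3c*, *Zfp296*, *Ogg1* and *Ppm1m* (0.035 to 0.044). None of the activators was among the 5 genes most like another. *Clock* and *Arntl* were the closest pair of activators, at 0.13. The median over genes was 0.38 from *Arntl* and 0.26 from *Clock*. With 15743 genes tested, *Clock* ranked 72 among the genes most like *Arntl*. In turn *Arntl* ranked 918 among those most like *Clock*.

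Cell type markers moved with genotype in part. The 8 neuron markers summed to 5170 to 6195 CPM in the knockout-labelled libraries and 2096 to 5086 in WT, and the 6 astrocyte markers to 14099 to 16779 and 9522 to 13607. All 8 neuron markers had log2 fold changes above 0, with a median of 0.47, or 0.25 without WT replicate 3. The astrocyte sum was mostly *Gfap*, and its genes went both ways: *Gfap*, *Aqp4* and *Slc1a2* were at 0.42, 0.43 and 0.53, *Gja1* at 0.02, and *Slc1a3* and *Aldh1l1* at -0.44 and -0.47. Their median was 0.22, or 0.074 without WT replicate 3. None of these 8 and 6 markers was called, and none was at 0 in all libraries. Over all genes tested, 0.654% were called higher and 0.915% lower, so 0 called in lists this short is near that share. Skeletal muscle markers (8 genes) summed to 5.44 to 7.08 CPM and 51.5 to 67.0 in WT, with 6 of 8 lower and called. Cell cycle markers (6 genes, 0 called) summed to 238 to 307 and 380 to 634 CPM, the 634 in WT replicate 3. Their median log2 fold change was -0.91, or -0.76 without that library. EC markers (6 genes) summed to 337 to 387 and 400 to 654 CPM, the 654 again in WT replicate 3. The EC median log2 fold change was -0.52, or -0.28 without that library. Only *Cdh5* among them was called lower, a call that held in 1 of 7 fits with a library left out. Schwann cell markers (4 genes, 0 called) summed to 152 to 207 and 230 to 548 CPM. The sums of oligodendrocyte, OPC, fibroblast, and microglia and macrophage markers overlapped between genotypes, with 0 of their genes called. For fibroblast markers (5 genes) the overlap rested on knockout-labelled replicate 2. Their sums were 333, 1509 and 269 CPM in the knockout-labelled libraries and 851 to 1308 in WT. The fibroblast median log2 fold change was -0.51, or -1.84 without that replicate. The part of all these marker differences in the levels of the activators was not tested.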

How the data were processed

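RNASeq was made from contused spinal cord of 3 mice labelled *Bmal1*-/- and 4 WT mice at dpi 3. Stranded libraries of poly-A RNA were aligned by the authors to GRCm38 using Tophat2, and they deposited raw counts per gene from HTSeq 0.10.0, without normalization, with FastQC 0.10.1 named in the submitters' processing notes. The annotation release and the strand setting are not given in the sources used here. Symbols, positions and exon lengths came from GENCODE M21 (21939 of 21965 gene IDs matched).

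Counts were filtered with filterByExpr, normalized with TMM and tested with edgeR 4.0.16 (limma 3.58.1, R 4.3.3), with Benjamini-Hochberg adjustment over 15743 genes. The common dispersion was 0.0342. Counting error alone would give the activators coefficients of variation of up to 5.04%, against 2.13% to 22.3% between mice, and it is a large part of the spread of *Arntl* and *Arntl2* in the knockout-labelled group (3.23% of 3.99% and 4.07% of 5.62%). Marker medians with each library left out were added after seeing the data. Ratios used counts + 0.5 and exact permutation tests. The code was tested on simulated data. Replicates are separate mice. Alternatives were DESeq2 1.42.0, voom, RLE, upper-quartile normalization, other filters, sex, a replicate block and each library left out. The genes named are the activators, the clock and bHLH-PAS lists, and the 5 profiles closest to each activator. The activators, lists and ratios were chosen with earlier results of these data known. One listed gene is not reported here. Columns of every library were used.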

Additional observations from a re-analysis of the deposited data

Results flagged for a closer look

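The activators, the clock and bHLH-PAS genes and the 3 ratios, 43 quantities in all, were searched for a WT library far from the other WT libraries. Such a value was found for 4 genes, each time in WT replicate 3. *Cry2* was at 43.2 CPM there against 60.3 to 63.2 in the other WT libraries, *Rora* at 37.6 against 47.4 to 49.4, *Rorb* at 19.5 against 23.6 to 24.1, and *Ncoa1* at 58.8 against 91.1 to 97.7. Chance flags about 1 in 20 groups. None of the 4 activators or their ratios had such a value.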

How the results depend on the processing

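The log2 fold changes of *Arntl*, *Clock* and *Npas2* kept their sign in all 15 alternatives. With the replicate block they were 0.77, 0.49 and 2.68 with adjusted p of 0.233, 0.357 and 0.0715 (edgeR), and none was called. With sex as a covariate *Clock* was at 0.48 and not called. With each library left out *Arntl* ranged from 0.71 to 0.82, *Clock* from 0.44 to 0.52, *Npas2* from 2.48 to 2.73 and *Arntl2* from -0.18 to 0.013, the last being reversed without WT replicate 3. Without division by exon length the log2 ratio of the CLOCK side to the BMAL side differed by 0.54 between genotypes, and the other alternatives of the 3 ratios moved them by less than the spread between replicates.

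Of all genes, 103 rose and 144 fell as reported. DESeq2 called 599 and 914, the replicate block called 0 and 0 (1590 at an unadjusted p under 0.05), and leaving out each library gave 30 to 291 and 27 to 439. The same-numbered libraries did not deviate together (correlations of -0.219, 0.146 and -0.395), and differently numbered ones ran from -0.376 to 0.406. With so few libraries these correlations show no pairing by number and cannot exclude one. The replicate block fits a term for each replicate number, and WT replicate 4 has no knockout-labelled mouse in its block. That fit therefore has fewer residual degrees of freedom than the fit as reported. The cause of the differences in calls between settings was not tested. Gene counts do not show which exons or transcripts were read.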
